A study of Sus scrofa with 60 samples.

Results

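The 8 genes described here are the hormone genes EPO and FGF23 and the hypoxia-response genes EGLN3, VEGFA, ADM, CA9, HIF1A and EPAS1, out of 30335 named genes in the liver count table. They were chosen by gene symbol. EPO and FGF23 entered because of their differences between diets among the bile-duct-ligated pigs of these same libraries, and the other 6 genes entered for their known part in the response to low oxygen. All 8, and the gene lists set beside them, were picked with earlier results of these data known. Differences of EPO and FGF23 between groups that involve ligated pigs are therefore given as a description, with no test. Both genes were tested only between sham pigs and by their relation within groups. Where a relation of either gene includes ligated pigs, it is not independent of the choice. All 8 genes passed the filter on low counts, with 16210 genes tested in all.

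The data are 60 libraries of piglet liver RNA in 6 groups made by crossing 3 diets with 2 operations. On day 1 of life each piglet had either bile duct ligation (BDL), which blocks bile outflow and makes a surgical model of cholestasis, or a sham operation, and all piglets carried jugular catheters. They then received enteral feeds by orogastric tube (ENT) or parenteral nutrition (PN) with a soy-based lipid emulsion (SLE) or a mixed lipid emulsion (MLE), and liver was taken after 14 days. The paper states that every pig began on PN, and that ENT pigs moved in steps to full enteral feeds during the first part of the study. The ENT groups thus also had PN at first. The sham groups held 12 pigs on ENT, 10 on SLE and 9 on MLE, and the BDL groups 10, 11 and 8. Each diet contrast between ENT and PN changes the route of feeding together with the lipid, so these cannot be told apart, and the liver samples are whole tissue at a single age.

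Total counts per library ran from 14469788 to 21374161. The groups were close. The median library of sham pigs had 17810100 counts on ENT, 17360067 on SLE and 16941880 on MLE, and that of BDL pigs 17259475, 17224837 and 17186457. Levels are given as CPM, the count scaled to a library size normalized by TMM, and a library with 3 counts or fewer of a gene is taken to be at the floor.

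Cells sense oxygen through prolyl hydroxylases, among them the product of EGLN3, which mark the hypoxia-inducible factors HIF1A and EPAS1 for destruction while oxygen is ample. When oxygen falls, both factors accumulate as proteins and switch on genes for blood vessel growth, glucose use, acid export, iron supply and red cell formation. EPO, the hormone of red cell formation, is made by the fetal liver and later mainly by the kidney, and FGF23, a hormone of phosphate and vitamin D balance, comes mainly from bone.

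Some libraries stood apart. ENT-sham replicate 2 and ENT-BDL replicate 1 had nearly the same counts, with a chi-square per degree of freedom of 1.9, the lowest of 1770 pairs of libraries, against 16.1 in the next pair. The summed level of 6 cholangiocyte markers was 281 CPM in that ENT-sham library and 280 CPM in its ENT-BDL partner, whereas the other 11 ENT-sham libraries lay between 41.2 and 71.6 CPM. A single pig identifier is given for replicates 9 and 10 of SLE-sham, and their value was 34.2, in place 51 of all pairs. Each library is counted as a pig below, so a pig may be counted more than once there, and whether the ENT pair holds a duplicated or mislabelled library was not tested. Within SLE-BDL, replicates 5 and 9 had the highest levels of both EPO and FGF23. Calls on members that change without these libraries are given both ways.

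The labels also carry an identifier number whose meaning is not stated. It took 8 values over the 60 pigs, and all MLE pigs fell on 4 of them. Libraries of different groups that shared an identifier number were more alike in residual expression, at a median correlation of 0.129 over 177 pairs against -0.0186 over 1318 other pairs. Member calls and HIF target counts that this number changes as a block are therefore given beside the results. For single genes of the lists and for the other lists no value with this block is given.

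The question asked of the ligated pigs was whether blocked bile flow changed these genes on each diet. Among the 6 members tested for BDL against sham, EPAS1 fell on ENT, EGLN3 rose on SLE and EGLN3 rose on MLE. That is 1 of 6 members in each comparison, next to 17.4% of all genes called on ENT, 4.54% on SLE and 14.4% on MLE. In the interactions of diet and BDL, edgeR called 0 of 6 members each time, next to 2.33% of all genes for SLE minus ENT, 0.0617% for MLE minus ENT and 0.265% for MLE minus SLE. At unadjusted p under 0.05 these 3 interactions held 3, 2 and 0 members, and DESeq2 called 1, 0 and 0. Of all 16210 genes, 2397, 1466 and 1582 had an unadjusted p under 0.05 there. That cut held 4869 genes for BDL on ENT and 2963 on SLE. It held 1838 for MLE-sham against SLE-sham and 2106 for MLE-BDL against SLE-BDL. Counts at that cut given below stand next to these.

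The question asked of the diets was whether PN, or its lipid, changed the same genes with and without ligation. Between sham groups, 2 of 8 members rose in SLE-sham over ENT-sham, EPAS1 and FGF23, next to 27.5% of all genes called. In MLE-sham against ENT-sham EPAS1 rose and EPO fell, 2 of 8 members next to 21.1% of all genes. Neither share stands clear of the background. The EPO call was lost with the identifier number as a block, and its direction reversed with only the identifier numbers of MLE pigs. With those pigs, 2 of them ENT-sham, the EPAS1 and FGF23 calls also missed the threshold. For MLE-sham against SLE-sham edgeR called 0 of 8, with 2 at unadjusted p under 0.05 and 0 by DESeq2, next to 0.999% of all genes.

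Between BDL groups, EPAS1, EGLN3 and VEGFA rose in SLE-BDL over ENT-BDL, 3 of 6 members against 19.6% of all genes, though the EGLN3 call did not hold under every alternative. In MLE-BDL over ENT-BDL the same 3 genes and HIF1A rose, 4 of 6 against 16.8% of all genes. Of these 4 only the EPAS1 call held under every alternative: those of HIF1A and VEGFA were lost with the identifier number as a block, and that of EGLN3 without single MLE-BDL pigs. For MLE-BDL against SLE-BDL edgeR called 0 of 6, with 0 at unadjusted p under 0.05 and 0 by DESeq2, next to 0.907% of all genes. Comparisons named here share groups: each ENT group serves as the reference for both PN groups.

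Per kilobase of gene length, mean levels over all 60 pigs differed widely between the genes. VEGFA had 68.5 and EPAS1 47.7 CPM per kilobase (RPKM), and HIF1A had 14.7. The other 5 were low, with 3.48 RPKM for FGF23, 3.27 for ADM, 2.64 for EGLN3, 2.39 for CA9 and 0.838 for EPO.

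**Figure D1:**
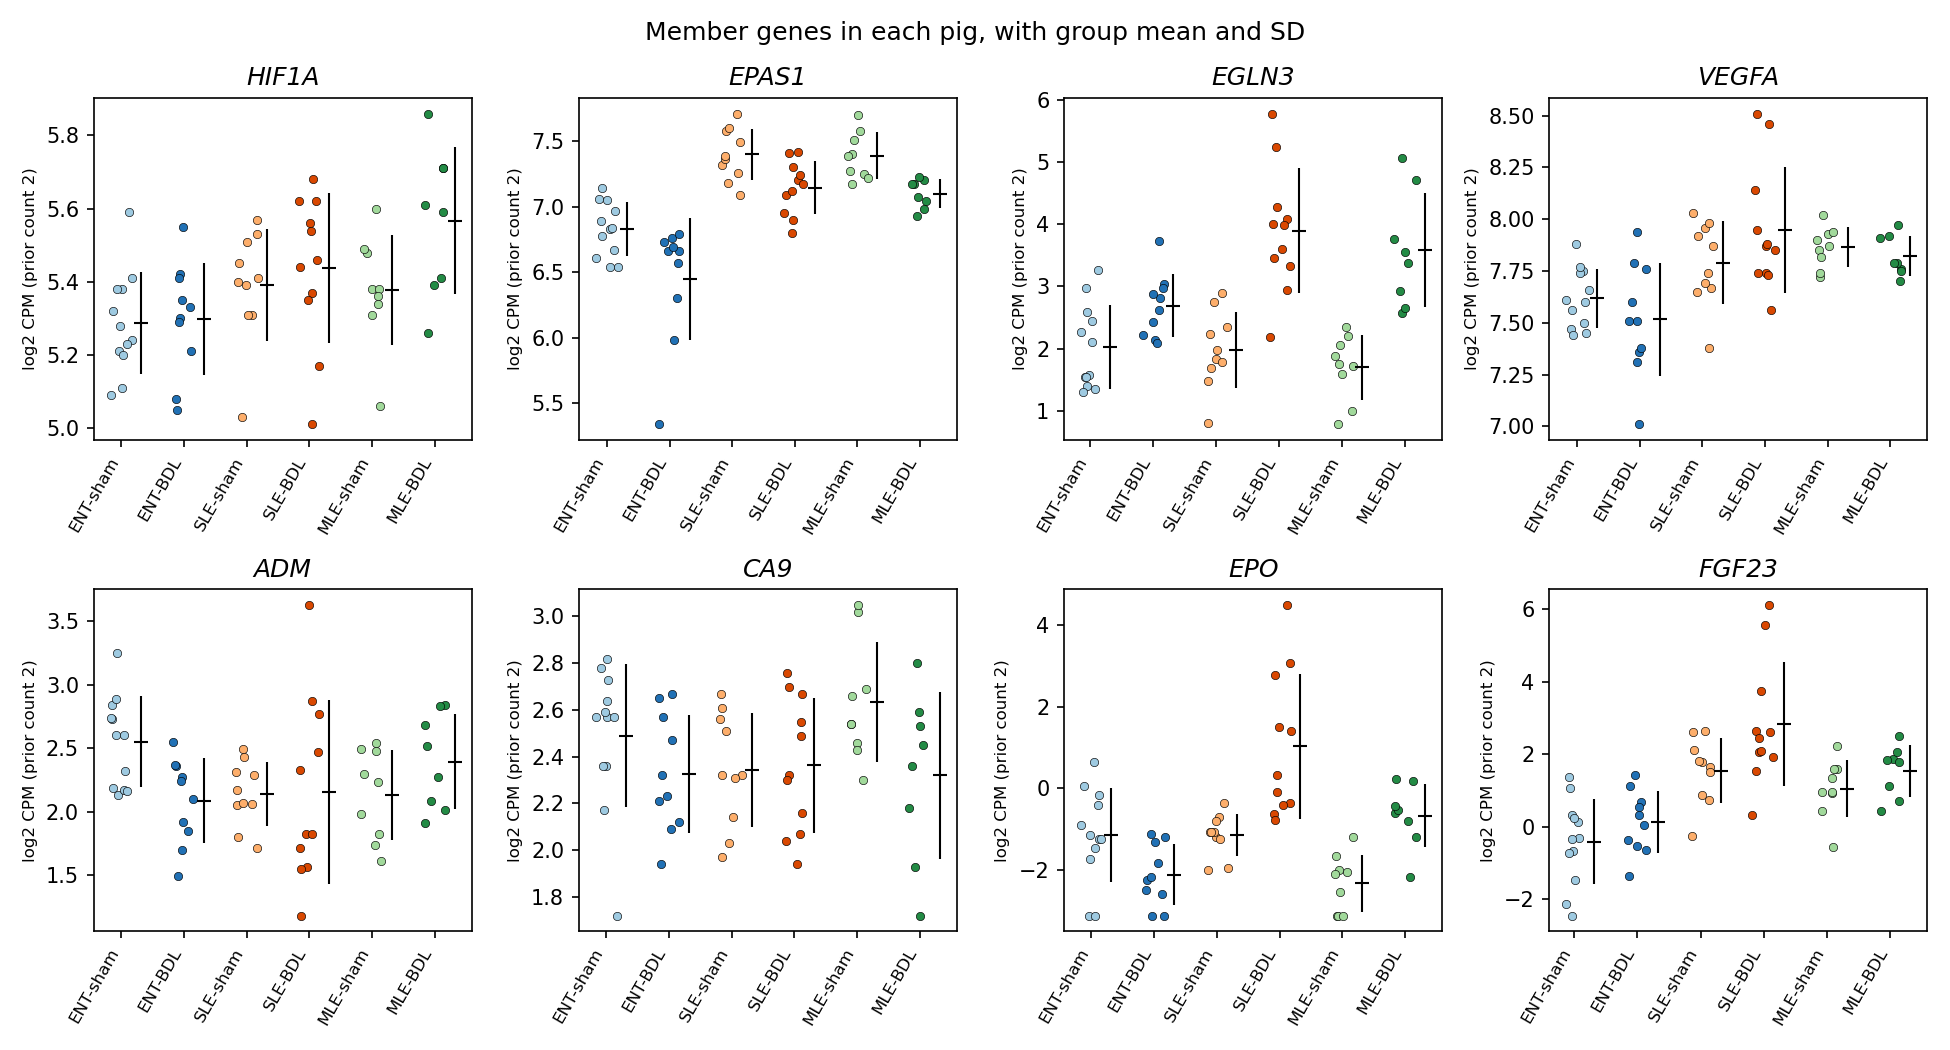
Log2 CPM of the 8 genes in each pig, by diet and surgery group, with the group mean and SD; the vertical axis is log2 CPM and each point is 1 pig. EPO and FGF23 spread most in SLE-BDL, where EPO ran from 0.47 to 22.5 CPM and FGF23 from 1.13 to 69.4 CPM, while HIF1A stayed between 32.1 and 58.2 CPM in all groups.

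HIF1A encodes the broadly expressed oxygen-regulated subunit HIF-1α (gene ID 396696, Sscrofa11.1 chromosome 1, 190625436 to 190673926). Its lowest, median and highest levels were 34, 38.1 and 48 CPM in ENT-sham, 33, 39.7 and 46.9 in ENT-BDL, and 32.6, 42.3 and 47.5 in SLE-sham. They were 32.1, 43.9 and 51 CPM in SLE-BDL, 33.4, 41.5 and 48.3 in MLE-sham, and 38.1, 48.4 and 58.2 in MLE-BDL. All 6 groups overlapped, and MLE-BDL reached highest. Only MLE-BDL against ENT-BDL passed the test among the 12 comparisons, with a log2 fold change of 0.27 (SE 0.08, adjusted p = 0.012), and 5 of 8 MLE-BDL pigs lay above every ENT-BDL pig. With the identifier number as a block the log2 fold change was 0.24 and missed the threshold (adjusted p = 0.0888, in a range of 0.0106 to 0.21 over the alternatives).

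EPAS1 encodes HIF-2α, the factor known to drive EPO transcription (gene ID 100037272, chromosome 3, 94167759 to 94253662). Its lowest, median and highest levels were 92.7, 114 and 141 CPM in ENT-sham, 137, 166 and 209 in SLE-sham, and 144, 168 and 208 in MLE-sham. After BDL they were 40.5, 101 and 110 CPM on ENT, 111, 144 and 171 on SLE, and 122, 139 and 150 on MLE. EPAS1 was thus low in both ENT groups and high in the PN groups, with no overlap between ENT-BDL and either PN-BDL group, and within each diet no BDL pig lay above the range of its sham pigs.

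The log2 fold change of EPAS1 over the ENT group was 0.57 in SLE-sham (SE 0.10, adjusted p = 1.66e-05) and 0.56 in MLE-sham (SE 0.11, adjusted p = 6.13e-05). After BDL it was 0.65 in SLE (SE 0.11, adjusted p = 5.92e-06) and 0.60 in MLE (SE 0.11, adjusted p = 0.0001). All 11 SLE-BDL and all 8 MLE-BDL pigs lay above every ENT-BDL pig, as did 9 of 10 SLE-sham and 9 of 9 MLE-sham pigs over ENT-sham. BDL lowered EPAS1 on ENT, by -0.34 (SE 0.10, adjusted p = 0.0168), and 3 of 10 ENT-BDL pigs lay under all ENT-sham pigs. On SLE and MLE the values were -0.25 (adjusted p = 0.166) and -0.29 (adjusted p = 0.0804), which missed the threshold, and the interactions of 0.08 and 0.04 did not pass either (adjusted p = 0.859 and 0.967). Restricted to pigs with the 4 identifier numbers that MLE pigs carry, a choice made after seeing the data, 2 ENT-sham pigs remain and the sham differences were 0.40 (adjusted p = 0.068) and 0.34 (adjusted p = 0.105). Those were the highest adjusted p over the alternatives, and the lowest were 1.74e-06 and 9.73e-06. With the same pigs the fall after BDL on ENT was -0.41 (adjusted p = 0.171, in a range from 0.00384), and that on MLE was -0.31 and passed (adjusted p = 0.00515, in a range of 0.00515 to 0.108).

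EGLN3 encodes PHD3, the oxygen-sensing hydroxylase that is itself a HIF target (gene ID 100152368, chromosome 7, 65805513 to 65833536). In sham pigs its lowest, median and highest levels were 2.35, 3.52 and 9.47 CPM on ENT, 1.63, 3.62 and 7.32 on SLE, and 1.61, 3.25 and 4.96 on MLE. After BDL they were 4.14, 6.47 and 13.1 CPM on ENT, 4.4, 15.7 and 54.8 on SLE, and 5.83, 10.9 and 33.4 on MLE. The sham groups covered much the same range, and the PN-BDL groups were high and widely spread.

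BDL raised EGLN3 on both PN diets, with a log2 fold change of 2.15 on SLE (SE 0.34, adjusted p = 0.000189) and 2.10 on MLE (SE 0.37, adjusted p = 5.85e-05). In SLE-BDL 10 of 11 pigs and in MLE-BDL 8 of 8 pigs lay above every sham pig of their diet. On ENT the value was 0.60 (SE 0.32, adjusted p = 0.197). The difference between the SLE and ENT responses was 1.55 (SE 0.46, or 2.93 fold), which missed the threshold in edgeR (adjusted p = 0.0555) and passed it in DESeq2 (adjusted p = 0.0197, in a range of 0.0197 to 0.779), and the difference between the MLE and ENT responses was 2.83 fold (log2 SE 0.49), close in size, and did not pass (adjusted p = 0.274). The MLE and SLE responses themselves differed by -0.05 (adjusted p = 0.99), so the values do not set MLE apart from SLE. SLE-BDL pigs stood 1.46 above ENT-BDL (SE 0.33, adjusted p = 0.000796) and MLE-BDL pigs 1.08 (SE 0.34, adjusted p = 0.0224). The latter was 0.77 without MLE-BDL replicate 3 and missed the threshold then, as it did without MLE-BDL replicate 7. Without SLE-BDL replicates 5 and 9, a choice made after seeing the data, EGLN3 stood 1.57 above SLE-sham (adjusted p = 0.00202) and 0.88 above ENT-BDL (adjusted p = 0.0331). Over all alternatives the adjusted p ran from 8.78e-08 to 0.0325 for SLE-BDL against SLE-sham, from 7.25e-05 to 0.0726 for SLE-BDL against ENT-BDL and from 0.009 to 0.111 for MLE-BDL against ENT-BDL. The call in SLE-BDL against ENT-BDL thus did not hold under every alternative.

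The rest of the oxygen-sensing machinery was described by 11 tested genes, while EGLN2 had no count in any library. The list held 2 genes called after BDL on each diet, all higher except HIF1AN on MLE. That is 18.2% of the list, close to the 17.4% of all genes on ENT and 14.4% on MLE, and above the 4.54% on SLE. ARNT2, a partner subunit of the HIFs, rose after BDL on all 3 diets, by 1.64 on ENT (SE 0.42), 1.92 on SLE (SE 0.47) and 2.06 on MLE (SE 0.52), from sham means of 0.483 ± 0.7, 0.308 ± 0.204 and 0.256 ± 0.187 CPM (SD). These means were low, with the floor of 3 counts at medians of 0.175, 0.176 and 0.192 CPM. Above every sham pig of their diet lay 1 ENT-BDL, 6 SLE-BDL and 8 MLE-BDL pigs. No ARNT2 value without both closely matching ENT libraries is given. EGLN1, the main oxygen-sensing hydroxylase, rose by 0.22 after BDL on SLE (SE 0.06, adjusted p = 0.0285).

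Between diets the list had 1 gene higher and 2 lower in SLE-sham than in ENT-sham and 2 higher and 3 lower in MLE-sham, or 27.3% and 45.5% of the list next to 27.5% and 21.1% of all genes. Over ENT-BDL it had 1 higher and 2 lower in SLE-BDL and 2 lower in MLE-BDL, or 27.3% and 18.2% next to 19.6% and 16.8%. Most of these shares are near the background. ARNT, the common partner of HIF1A and EPAS1, fell with PN in all 4 comparisons, by -0.47 in SLE-sham (SE 0.08), -0.36 in MLE-sham (SE 0.08), -0.48 in SLE-BDL (SE 0.08) and -0.34 in MLE-BDL (SE 0.08). CITED2, which competes with HIF1A for a coactivator, was lower in the same 4 comparisons, at -0.34, -0.45, -0.40 and -0.71. HIF3A, a paralogue with an inhibitory form, rose by 0.99 in SLE-sham (adjusted p = 0.0381) and by 1.35 in MLE-sham (adjusted p = 0.00669). EPAS1 and its partner ARNT thus moved in opposite directions between ENT and PN.

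VEGFA encodes the growth factor that drives new blood vessels (gene ID 397157, chromosome 7, 38746393 to 38762282). In sham pigs its lowest, median and highest levels were 174, 195 and 236 CPM on ENT, 166, 224 and 262 on SLE, and 211, 235 and 259 on MLE. After BDL they were 129, 182 and 245 CPM on ENT, 189, 233 and 366 on SLE, and 207, 221 and 250 on MLE. All groups overlapped, with the lowest pigs in ENT-BDL and the highest in SLE-BDL. The log2 fold change over ENT-BDL was 0.44 in SLE-BDL (SE 0.09, adjusted p = 0.000362), where 4 of 11 pigs lay above all ENT-BDL pigs. In MLE-BDL it was 0.29 (SE 0.10, adjusted p = 0.0373), a call that was lost in 40 of 60 fits that each left out 1 pig and with the identifier number as a block (0.22, adjusted p = 0.149, in a range of 0.0124 to 0.184). MLE-sham stood 0.24 above ENT-sham and missed the threshold (adjusted p = 0.0505), which it passed without both closely matching ENT libraries (0.26, adjusted p = 0.0289) and without SLE-BDL replicates 5 and 9 (adjusted p = 0.0353), in a range of 0.0289 to 0.473. The SLE response to BDL differed from the ENT response by 0.26 (adjusted p = 0.323), and by 0.41 with the identifier number as a block, which passed (adjusted p = 0.0424, in a range of 0.0424 to 0.831). The BDL responses of VEGFA were -0.09 on ENT, 0.18 on SLE and -0.04 on MLE, and none of these 3 passed.

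ADM encodes adrenomedullin, a vasodilator peptide (gene ID 397195, chromosome 2, 49229223 to 49231521). Its lowest, median and highest levels were 4.27, 5.96 and 9.42 CPM in ENT-sham, 3.15, 4.24 and 5.49 in SLE-sham, and 2.94, 4.59 and 5.69 in MLE-sham. They were 2.7, 4.38 and 5.75 CPM in ENT-BDL, 2.15, 3.42 and 12.2 in SLE-BDL, and 3.65, 5.16 and 7.05 in MLE-BDL. The single highest value belonged to SLE-BDL replicate 9, and all groups overlapped. No comparison passed, the nearest being ENT-BDL against ENT-sham at -0.49 (SE 0.19, adjusted p = 0.0709). It passed at -0.55 without both closely matching ENT libraries (adjusted p = 0.0458) and at -0.49 without SLE-BDL replicates 5 and 9 (adjusted p = 0.0291), in a range of 0.0291 to 0.386. SLE-sham stood at -0.44 against ENT-sham (adjusted p = 0.0783) and passed without those SLE-BDL pigs (-0.45, adjusted p = 0.0338, in a range of 0.0338 to 0.302).

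CA9 encodes carbonic anhydrase IX, an acid-handling enzyme and a widely used marker of hypoxia (gene ID 100152792, chromosome 1, 236393727 to 236400994). Its lowest, median and highest levels were 3.18, 5.82 and 6.93 CPM in ENT-sham, 3.81, 4.88 and 6.24 in SLE-sham, and 4.81, 5.7 and 8.18 in MLE-sham. They were 3.72, 4.72 and 6.23 CPM in ENT-BDL, 3.71, 4.89 and 6.64 in SLE-BDL, and 3.19, 5.19 and 6.85 in MLE-BDL. The groups covered nearly the same range, and no comparison passed. The lowest adjusted p was 0.154, for MLE-BDL against MLE-sham at -0.30 (SE 0.14).

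A list of 40 further HIF target genes was tested beside these members. BDL changed 7 of them upward and 1 downward on ENT, which is 20% of the list next to 17.4% of all genes. On SLE 9 rose and 0 fell, or 22.5% of the list next to 4.54% of all genes, and on MLE 8 rose and 3 fell, or 27.5% next to 14.4%. The list's median log2 fold changes after BDL were 0.06 on ENT, 0.34 on SLE and 0.21 on MLE, where the medians of all tested genes were 0.01, 0.01 and 0.00.

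The called genes with the greatest changes after BDL had several functions. SLC16A3, the lactate exporter MCT4, rose from 1.82 ± 0.641 CPM in SLE-sham to 8.31 ± 8.35 CPM in SLE-BDL (SD, n = 10 and 11; log2 fold change 2.18, SE 0.37), and by 2.20 on MLE (SE 0.41). HK2, the inducible hexokinase, rose by 1.98 on ENT and by 3.19 on MLE, where its mean was 2.05 ± 1.53 CPM against 0.22 ± 0.191 CPM. The floor of 3 counts stood at a median of 0.192 CPM in MLE-sham, so HK2 was near the floor there, which limits the MLE value. IGFBP1, a binding protein for insulin-like growth factors, rose by 1.71 and the glucose transporter gene SLC2A3 by 1.09 on SLE, and PFKFB3, an activator of glycolysis, rose by 1.61 on MLE. CP, which encodes the copper-carrying ferroxidase ceruloplasmin, fell by -1.54 on ENT (SE 0.38) and -1.45 on MLE (SE 0.43).

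The SLE count fell when a few pigs were left out. It was 5 without SLE-BDL replicate 9, and 2 without replicates 5 and 9, a choice made after seeing the data. With only the identifier numbers of MLE pigs, also chosen after seeing the data, the counts after BDL were 0 on ENT, 1 on SLE and 12 on MLE, so those on ENT and SLE depend on which pigs are kept. The shares of all genes called in these smaller fits are not given. It is therefore not shown whether calls fell more for HIF targets than for all genes. The interaction of SLE against ENT called 3 of 40, namely LDHA at 1.17, BHLHE40 at 1.36 and CP at 2.07, next to 2.33% of all genes. For MLE against ENT and MLE against SLE edgeR called 0 of 40, with 5 and 8 at unadjusted p under 0.05 and 0 and 1 by DESeq2.

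Diet changed the list as well. In SLE-sham 14 genes were higher and 5 lower than in ENT-sham, 47.5% of the list next to 27.5% of all genes. MLE-sham had 6 higher and 4 lower than ENT-sham, 25% next to 21.1%, which is close to the background. With the identifier number as a block the MLE-sham count was 6 of 40, next to 17.9% of all genes. With only the identifier numbers of MLE pigs the SLE-sham and MLE-sham counts were 9 and 5, with no share of all genes given for that smaller fit. MLE-sham against SLE-sham gave 4 genes, all lower, or 10% next to 0.999%. They were HK2 at -2.54 (SE 0.55), PFKFB3 at -1.62 (SE 0.35), ANGPTL4, an inhibitor of lipoprotein lipase, at -1.23 (SE 0.32), and PFKL at -0.40 (SE 0.10). The HK2 mean in MLE-sham was near the floor. With low-count genes kept in the fit 2 of these 40 passed, and fits without 1 pig gave 2 to 4.

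Among ligated pigs 23 target genes were higher and 4 lower in SLE-BDL than in ENT-BDL, 67.5% of the list next to 19.6% of all genes. The count in MLE-BDL was 14 higher and 5 lower, 47.5% next to 16.8%. MLE-BDL against SLE-BDL gave 1 gene of 40, ANGPTL4 at -1.37 (SE 0.33), or 2.5% next to 0.907%. Without SLE-BDL replicates 5 and 9 the count in SLE-BDL over ENT-BDL was 21, and with only the identifier numbers of MLE pigs it was 9 in SLE-BDL and 11 in MLE-BDL. No share of all genes is given for these smaller fits, so their counts are not set against a background.

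Several of these targets had large differences between diets. PFKFB3 had 82.1 ± 49.9 CPM in SLE-BDL and 58.4 ± 14.4 CPM in MLE-BDL against 19.2 ± 8.02 CPM in ENT-BDL (SD), and SLC16A3 was 2.07 and 1.86 higher on the log2 scale. TFRC, the transferrin receptor through which cells take up iron, was higher with PN in all 4 comparisons, with sham medians of 34 CPM on ENT, 113 on SLE and 137 on MLE and BDL medians of 32.7, 119 and 111 CPM. DDIT4, a brake on growth signalling, rose in the same 4 comparisons, by 1.79 in SLE-sham, 1.76 in MLE-sham, 1.70 in SLE-BDL and 1.31 in MLE-BDL.

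IGFBP1 went the other way. It fell by -4.17 in SLE-sham (SE 0.49), -3.87 in MLE-sham (SE 0.51), -2.43 in SLE-BDL (SE 0.45) and -3.76 in MLE-BDL (SE 0.54), from ENT means of 585 ± 318 CPM in sham and 574 ± 159 CPM in BDL pigs (SD). No sham pig on PN reached any ENT-sham pig. Several of these genes, IGFBP1, HK2 and PFKFB3 among them, also answer to feeding and insulin, and oxygen was not measured.

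**Figure D2:**
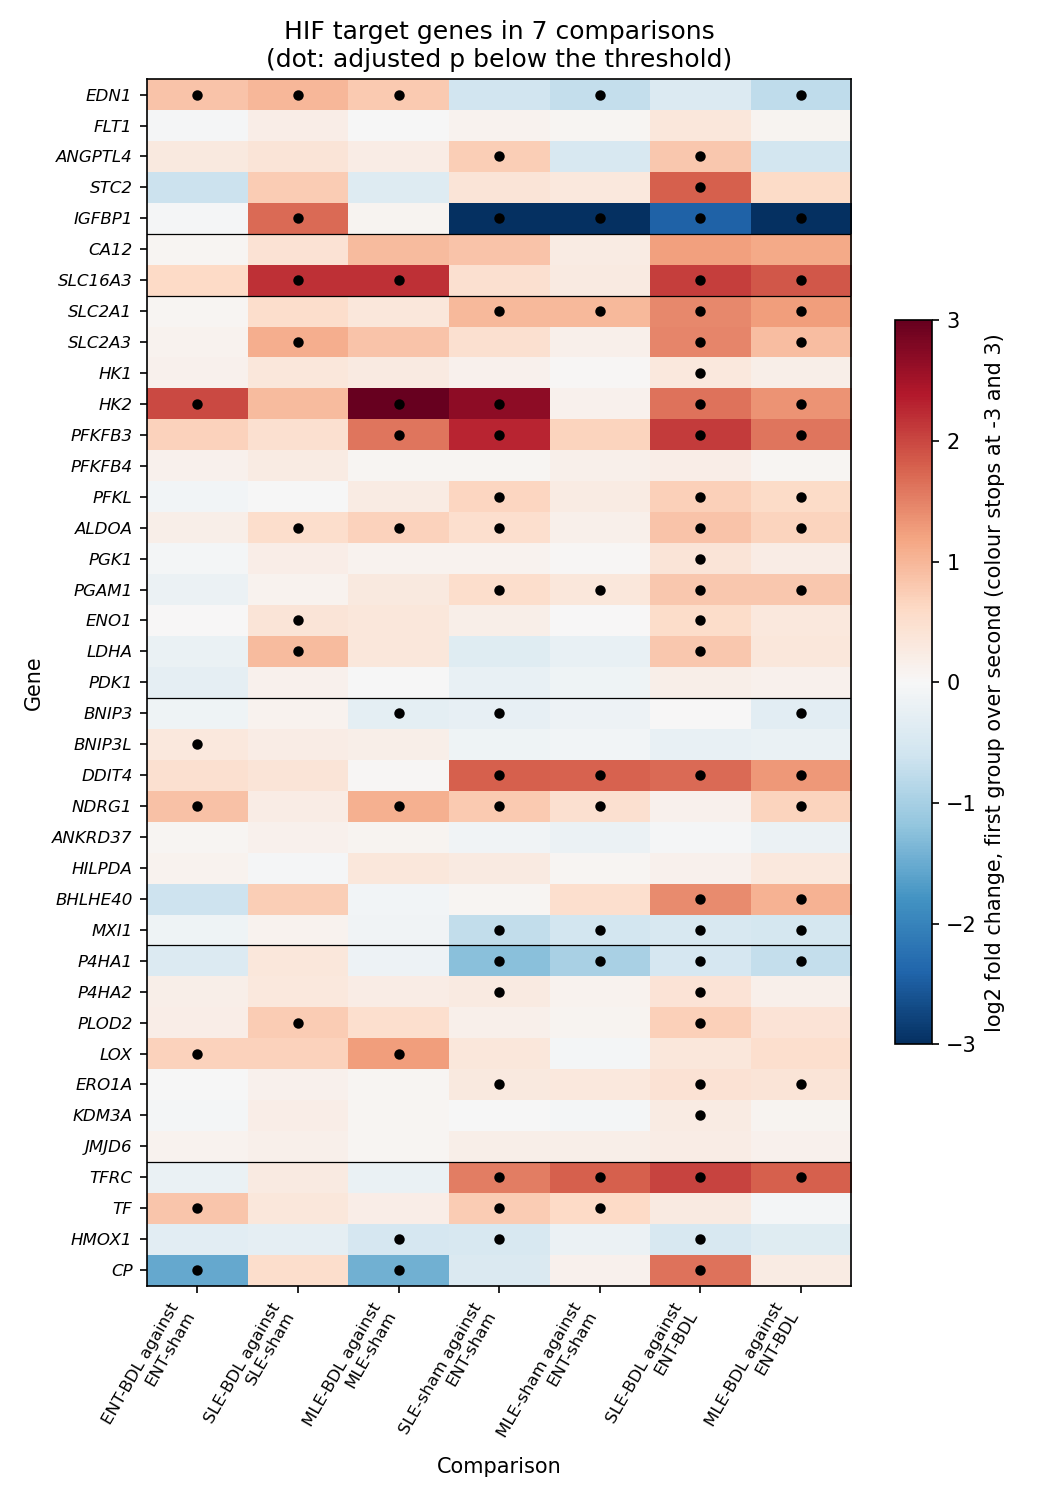
Log2 fold changes of further HIF target genes (rows; not every gene of the list is drawn) in 7 comparisons (columns), on a colour scale from lower to higher in the first-named group, with a dot where the adjusted p was below 0.05. In the full list 23 genes were higher in SLE-BDL than in ENT-BDL, and IGFBP1 was lower with PN than with ENT in sham and BDL pigs.

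EPO (gene ID 397249, chromosome 3, 8620508 to 8622936) was the scarcest of the 8 members, with 1048 counts in all 60 libraries together. In sham pigs its lowest, median and highest levels were 0, 0.324 and 1.44 CPM on ENT, 0.136, 0.359 and 0.659 on SLE, and 0, 0.116 and 0.326 on MLE. After BDL they were 0, 0.103 and 0.344 CPM on ENT, 0.47, 1.14 and 22.5 on SLE, and 0.107, 0.56 and 1.06 on MLE. In counts per library this was 0 to 26, 2 to 12 and 0 to 5 for the sham groups in that order, and 0 to 8, at least 7 and 2 to 20 for the BDL groups. At the floor were 3 of 12, 2 of 10 and 8 of 9 sham libraries on ENT, SLE and MLE, and 7 of 10, 0 of 11 and 1 of 8 BDL libraries.

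SLE-BDL pigs were the high group, and most of its height came from 3 pigs. Their levels, from replicate 1 to 11, were 1.14, 2.54, 0.816, 6.78, 22.5, 2.71, 0.534, 0.47, 8.28, 0.67 and 0.636 CPM. Replicates 4, 5 and 9 lay above all others, and the lowest of the remaining 8 overlapped SLE-sham and MLE-BDL pigs. Replicates 1 to 5 share an identifier number, replicates 4 and 5 among them, and replicate 9 carries a different one. Every SLE-BDL pig lay above every ENT-BDL pig, and 8 of 11 lay above every SLE-sham pig.

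Ordered by mean level, the groups were SLE-BDL (4.28 ± 6.6 CPM, SD), MLE-BDL (0.588 ± 0.321), ENT-sham (0.467 ± 0.418), SLE-sham (0.362 ± 0.157), ENT-BDL (0.144 ± 0.13) and MLE-sham (0.107 ± 0.109). Neighbours in this order differed by less than the larger of their SDs, except SLE-sham and ENT-BDL, and SLE-BDL had an SD above its mean. As a description, the fitted log2 fold change from sham to BDL was -1.60 on ENT (SE 0.65), 3.52 on SLE (SE 0.58) and 2.40 on MLE (SE 0.76). Over ENT-BDL it was 4.76 in SLE-BDL (SE 0.64) and 1.92 in MLE-BDL (SE 0.68). Most ENT-BDL and MLE-sham libraries were at the floor, which limits these values. With only the identifier numbers of MLE pigs, where both ENT-sham pigs had 0 counts, the ENT value was 3.11. Without SLE-BDL replicates 5 and 9 the SLE-BDL values were 2.28 over SLE-sham and 3.52 over ENT-BDL.

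Among sham pigs, whose diet differences were not those the gene was chosen on, EPO was lower in MLE-sham than in ENT-sham, with a log2 fold change of -2.09 (SE 0.73, adjusted p = 0.0331), and all 9 MLE-sham pigs lay inside the range of ENT-sham. This call was lost in 6 of 60 fits that each left out 1 pig, and with the identifier number as a block the value was -1.07 (adjusted p = 0.483, in a range of 0.0102 to 0.483 over the alternatives). With only the identifier numbers of MLE pigs its direction reversed, to 3.97 (adjusted p = 0.319). Both ENT-sham pigs that share an identifier number with MLE pigs had 0 EPO counts, while the other 10 had 3 to 26. SLE-sham differed from ENT-sham by -0.36 (SE 0.59, adjusted p = 0.7; 0.43 with the identifier number as a block, adjusted p = 0.693), and MLE-sham from SLE-sham by -1.73 (SE 0.77, adjusted p = 0.356), and neither passed.

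The EPO axis had few called genes. The 9 tested genes cover the receptor, its signalling chain, its feedback inhibitor, erythroferrone and 3 transcription factors. BDL called 0 of 9 on ENT and on SLE in edgeR, with 3 and 1 at unadjusted p under 0.05 and 0 and 0 by DESeq2, and 1 of 9 on MLE, where 14.4% of all genes were called. Over ENT the calls were 2 of 9 in SLE-sham (27.5% of all genes), 1 in MLE-sham (21.1%), 2 in SLE-BDL (19.6%) and 2 in MLE-BDL (16.8%), so none of these shares stands clear of the background. STAT5B, which carries the receptor's signal, fell by -0.38 after BDL on MLE (SE 0.06, adjusted p = 2.13e-05), and it was also lower in SLE-sham, SLE-BDL and MLE-BDL than on ENT, at -0.21, -0.21 and -0.36. STAT5A was lower in SLE-BDL than in ENT-BDL (-0.38, adjusted p = 0.0259), and GATA4 was higher in MLE-BDL (0.32, adjusted p = 0.0311). JAK2, the receptor's kinase, rose by 0.31 in each PN-sham group over ENT-sham. EPOR, the receptor, was singled out after its values were seen. It had medians of 1.92 to 2.72 CPM in the 6 groups and passed in no comparison. ERFE, the erythroid hormone that lowers hepcidin, had group medians of 0.178 to 0.694 CPM and did not pass either.

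Erythroid markers in the liver were read beside EPO, and the relation between the group values was not tested. Of 16 erythroid markers 14 were tested, and HBB, the beta-globin gene, was the most abundant. Their summed level averaged 1230 CPM (SD 599), 476 (SD 189) and 574 (SD 149) in sham pigs on ENT, SLE and MLE, and 1367 (SD 1109), 657 (SD 424) and 277 (SD 134) in BDL pigs. BDL called 0 of 14 on ENT and on SLE in edgeR, with 0 and 0 at unadjusted p under 0.05 and 0 and 0 by DESeq2, with a median log2 fold change of the list of 0.77 and 0.87. On MLE the median was -0.31, and HBB fell by -1.09 and ALAS2, the first enzyme of erythroid haem synthesis, by -1.14. That is 2 of 14, or 14.3% next to 14.4% of all genes. In MLE-BDL 7 of 14 were lower than in ENT-BDL, 50% next to 16.8%, among them AHSP at -3.08, HBB at -2.33 and HBM at -2.33. HBB was also lower in SLE-sham (-1.43), MLE-sham (-1.12) and SLE-BDL (-1.12) than on ENT, but there the list had 14.3%, 14.3% and 7.14% called next to 27.5%, 21.1% and 19.6% of all genes, which is below the background. For MLE-BDL against SLE-BDL edgeR called 0 of 14, next to 0.907% of all genes, with a median of -1.66. At unadjusted p under 0.05 there were 12 of 14, next to 2106 of all 16210 genes, and DESeq2 called 4. In whole liver, fewer cells of a type and less RNA per cell cannot be told apart, for these markers as for every gene here.

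Hepcidin expression separated ENT from PN. HAMP encodes hepcidin, the liver hormone that blocks iron export, and its group medians were 116 CPM in ENT-sham and 73.1 CPM in ENT-BDL against 0.352 and 0.257 CPM in sham pigs on SLE and MLE and 0.449 and 0.904 CPM in BDL pigs. No PN pig reached any ENT pig. HAMP fell by -7.66 in SLE-sham, -7.90 in MLE-sham, -6.74 in SLE-BDL and -6.56 in MLE-BDL, and BMP6, a signal that raises hepcidin, fell by -1.41, -1.46, -1.15 and -1.58 in the same order. FTH1, the ferritin heavy chain, rose in all 4, by 0.60, 0.71, 0.59 and 0.54. Of 9 iron genes tested, 6 were called in SLE-sham and in MLE-sham and 3 in each PN-BDL group, or 66.7%, 66.7%, 33.3% and 33.3% of the list next to 27.5%, 21.1%, 19.6% and 16.8% of all genes. BDL called 2 on ENT, 2 on MLE and 0 on SLE, where 3 passed at unadjusted p under 0.05 and 0 by DESeq2. The 22.2% on ENT and MLE lies near the 17.4% and 14.4% of all genes.

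FGF23 (gene ID 100155339, chromosome 5, 66028591 to 66038078) was above the floor in all but 2 libraries, both ENT-sham. In sham pigs its lowest, median and highest levels were 0.067, 0.68 and 2.5 CPM on ENT, 0.725, 3.16 and 6.09 on SLE, and 0.562, 1.83 and 4.59 on MLE. After BDL they were 0.274, 1.02 and 2.57 CPM on ENT, 1.13, 5.26 and 69.4 on SLE, and 1.23, 3.37 and 5.56 on MLE. The ENT groups were low, the PN groups higher, and all but 3 SLE-BDL pigs stayed within or near the range of the other PN groups.

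Those 3 were again replicates 4, 5 and 9. Levels in SLE-BDL, from replicate 1 to 11, were 2.8, 5.93, 4.08, 13.2, 47.5, 3.68, 1.13, 6.17, 69.4, 4.14 and 5.26 CPM. The highest FGF23 pig was replicate 9 and the highest EPO pig replicate 5, so the top pair was the same in a different order.

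By mean level the groups stood in the order SLE-BDL (14.9 ± 22.3 CPM, SD), SLE-sham (3.27 ± 1.79), MLE-BDL (3.09 ± 1.43), MLE-sham (2.22 ± 1.16), ENT-BDL (1.15 ± 0.727) and ENT-sham (0.869 ± 0.735). Neighbours in this order differed by less than the larger of their SDs. As a description, BDL pigs differed from sham pigs by a log2 fold change of 0.41 on ENT (SE 0.55), 2.18 on SLE (SE 0.50) and 0.48 on MLE (SE 0.56), and SLE-BDL and MLE-BDL stood 3.68 (SE 0.55) and 1.42 (SE 0.56) above ENT-BDL. Without replicates 5 and 9 the SLE-BDL values were 0.65 over SLE-sham and 2.15 over ENT-BDL.

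In sham pigs, where it could be tested, FGF23 was higher with soy lipid PN than with enteral feeds. The log2 fold change of SLE-sham over ENT-sham was 1.91 (SE 0.52, adjusted p = 0.0039), and 7 of 10 SLE-sham pigs lay above every ENT-sham pig. With the identifier number as a block it was 2.42 (adjusted p = 0.00127), and among pigs with MLE identifier numbers alone, with 2 ENT-sham pigs left, it was 2.59 (adjusted p = 0.141, the highest over the alternatives, with 0.000148 the lowest). MLE-sham stood 1.34 above ENT-sham (SE 0.54), which missed the threshold in edgeR (adjusted p = 0.0672) and passed it in DESeq2 (adjusted p = 0.0473) and without SLE-BDL replicates 5 and 9 (adjusted p = 0.0125), in a range of 0.0125 to 0.288. MLE-sham and SLE-sham differed by -0.57 (SE 0.53, adjusted p = 0.775).

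The FGF23 axis list covered receptors, klotho co-receptors, processing enzymes, vitamin D genes and phosphate carriers, with 18 of 22 genes tested. BDL called 5 higher and 3 lower on ENT, 2 higher on SLE, and 3 higher and 2 lower on MLE, or 44.4% of the list on ENT next to 17.4% of all genes, 2 of 18 on SLE next to 4.54%, and 27.8% on MLE next to 14.4%. VDR, the vitamin D receptor, rose by 2.16 on ENT (SE 0.51) and 3.50 on MLE (SE 0.64). KL, which encodes the klotho co-receptor that FGF23 needs, rose by 1.45 on ENT (SE 0.49, adjusted p = 0.0298) and 1.53 on MLE (SE 0.55, adjusted p = 0.049), from medians of 0.804 and 0.749 CPM in the sham groups to 2.21 and 3.44 CPM. SLC20A1, a phosphate importer, rose by 0.71 on SLE and 0.91 on MLE. CYP24A1, the vitamin D breakdown enzyme that FGF23 induces, had no count in any library, and FGF19 had 1 count in 1 library.

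Between diets this list was called in both directions. SLE-sham had 5 higher and 4 lower than ENT-sham, MLE-sham 4 and 2, SLE-BDL 4 and 4 over ENT-BDL, and MLE-BDL 5 and 1. That is 50%, 33.3%, 44.4% and 33.3% of the list next to 27.5%, 21.1%, 19.6% and 16.8% of all genes. KLB, the co-receptor for FGF19 and FGF21, was lower with PN in all 4, at -0.84, -0.61, -0.76 and -0.72, and BDL raised it by 0.46 on ENT and 0.54 on SLE. FGF21, a fasting hormone of the liver, was higher in SLE-sham by 1.39 (SE 0.26) and in SLE-BDL by 1.09 (SE 0.27) than on ENT. FGFR2 rose by 0.74 in MLE-sham, and its BDL response on MLE differed from that on ENT by -0.79 (SE 0.17, adjusted p = 0.0431), the 1 gene of 18 called in that interaction. For the other interactions, SLE minus ENT and MLE minus SLE, edgeR called 0 of 18, with 4 and 1 at unadjusted p under 0.05 and 0 and 0 by DESeq2.

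Whether EPO and FGF23 moved together over animals was tested on deviations of log2 CPM from each group's mean, so that differences between groups play no part. Over all 60 pigs Pearson's r was 0.47 (permutation p = 0.0034, adjusted p = 0.0147 over 13 pairs of genes) and Spearman's rho was 0.35 (permutation p = 0.0115, adjusted p = 0.0386). The 2 pigs farthest from the median of the EPO deviations were SLE-BDL replicates 5 and 9. Without them r was 0.23 (permutation p = 0.118, n = 58), so the relation rests on these pigs. With SLE-BDL left out it was 0.14 (permutation p = 0.398, n = 49), in sham pigs alone 0.08 (permutation p = 0.705, n = 31) and in BDL pigs alone 0.70 (permutation p = 0.00087, n = 29). The values over all 60 pigs and over BDL pigs include the ligated pigs whose diet differences led to the choice of both genes. Their p-values are therefore not independent of that choice. With identifier number means also subtracted r was 0.62 (permutation p = 0.00459).

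Taken group by group, with p-values adjusted over 6 groups, the relation passed in SLE-BDL by r only. There r was 0.83 (permutation p = 0.00208, adjusted p = 0.0125) and rho 0.53 (permutation p = 0.1, adjusted p = 0.602), and without replicates 5 and 9 r was 0.58 (exact permutation p = 0.115, n = 9) and rho 0.15 (exact permutation p = 0.708). MLE-BDL had an r of 0.64 (exact permutation p = 0.0791, adjusted p = 0.237, n = 8) and a rho of 0.48 (exact permutation p = 0.243, adjusted p = 0.729), and r was -0.08 without its 2 farthest pigs. In ENT-sham r was 0.04 and rho 0.18 (permutation p = 0.908 and 0.583), in ENT-BDL 0.06 and -0.01 (permutation p = 0.875 and 0.98), in SLE-sham 0.22 and 0.15 (permutation p = 0.546 and 0.681), and in MLE-sham 0.11 and 0.02 (exact permutation p = 0.781 and 0.981). All of these had an adjusted p of 0.908 for r and 0.981 for rho. The values of BDL pigs entered the choice of both genes, so relations that include them, that in SLE-BDL among these, are not independent of the choice. In the sham pigs, whose diet differences were not used for it, no relation passed. Whether r differs between groups was not tested. EPO counts near the floor limit the precision of r in ENT-BDL and MLE-sham.

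**Figure D3:**
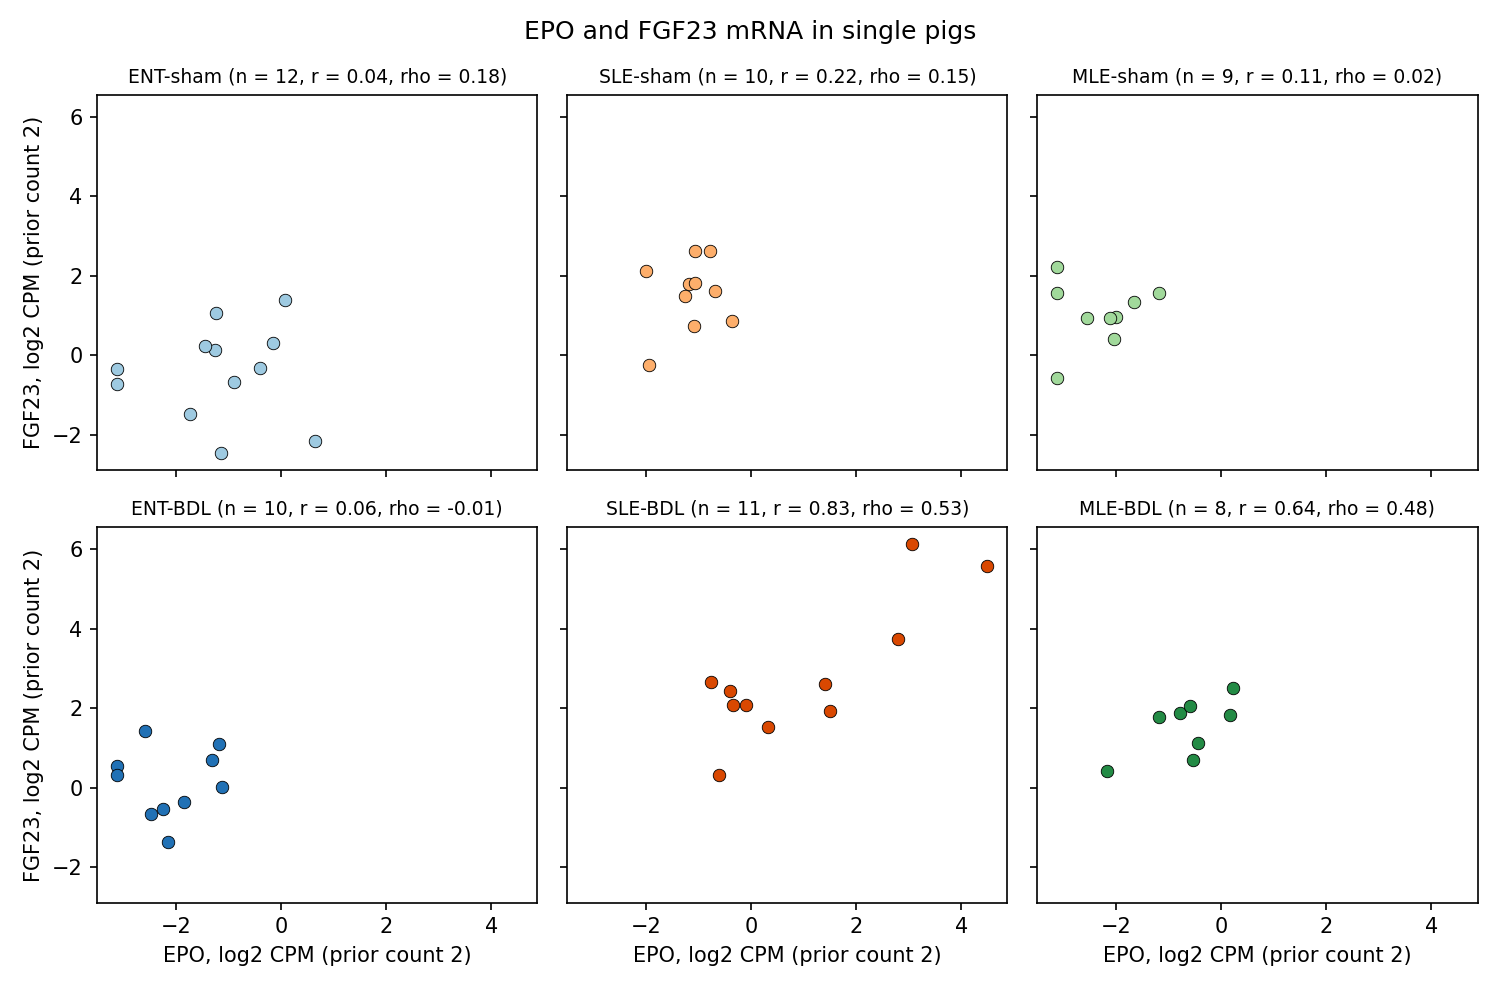
FGF23 against EPO, both as log2 CPM, in each of the 6 groups, with Pearson's r and Spearman's rho in each panel; each point is 1 pig. In SLE-BDL, where r was 0.83, replicates 5 and 9 lie highest on both axes, with replicate 4 next.

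The other members varied with EPO and FGF23 to different degrees, again as deviations from group means over 60 pigs. EPO went with EGLN3 at an r of 0.54 (permutation p = 0.00011, adjusted p = 0.00143; rho 0.46, permutation p = 0.00069, adjusted p = 0.00897), which was 0.38 without SLE-BDL replicates 5 and 9 (permutation p = 0.00604) and 0.34 with SLE-BDL left out (permutation p = 0.0245). With ADM its r was 0.44 (permutation p = 0.00873, adjusted p = 0.0227; rho 0.36, permutation p = 0.0119, adjusted p = 0.0386), which fell to 0.03 with SLE-BDL left out. FGF23 went with HIF1A at 0.42 (permutation p = 0.00239, adjusted p = 0.0147; rho 0.41, permutation p = 0.0022, adjusted p = 0.0143), which was 0.33 without the 2 farthest pigs (permutation p = 0.0125) and 0.39 with SLE-BDL left out (permutation p = 0.00522). FGF23 with EGLN3 gave 0.39 (permutation p = 0.0076, adjusted p = 0.0227; rho 0.32, permutation p = 0.016, adjusted p = 0.0416) and rested on those pigs, with 0.17 without them. FGF23 and CA9 ran opposite at -0.27 (permutation p = 0.0489, adjusted p = 0.0909; rho -0.29, permutation p = 0.0336, adjusted p = 0.0727), which missed the threshold after adjustment. It was -0.38 without the 2 farthest pigs (permutation p = 0.00423) and -0.42 with SLE-BDL left out (permutation p = 0.00417), both unadjusted, so it does not rest on those pigs. For the remaining 7 pairs of the 13 r lay between -0.13 and 0.37, and the adjusted p was at least 0.0509 for r. Identifier number means were subtracted only for the pair of EPO and FGF23, so the p-values of the other pairs do not allow for that number.

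SLE-BDL replicates 5 and 9 were high in several members at once. Replicate 5 had 54.8 CPM of EGLN3, 283 of VEGFA, 6.72 of ADM and 49.1 of HIF1A, and replicate 9 had 37.6 CPM of EGLN3, 366 of VEGFA, 12.2 of ADM and 51 of HIF1A. Replicate 5 had the most EGLN3 of any pig and replicate 9 the most VEGFA and ADM. Their CA9 levels of 4.07 and 6.64 CPM and EPAS1 levels of 136 and 171 CPM lay within the range of other PN pigs.

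Which genes were most like EPO and FGF23 was read across 13677 genes with a symbol. By Spearman's rho of log2 CPM over the 60 pigs, those nearest to EPO were PFN1 (0.62), TUBA1B (0.62), SERTAD1 (0.61), TAGLN2 (0.59) and UPP1 (0.59), and those nearest to FGF23 were CLTC (0.73), RAB7A (0.72), STC1 (0.71), FAM53C (0.70) and DESI1 (0.69). Group means were not subtracted for this rho. It therefore includes the differences between diets among ligated pigs that led to the choice of EPO and FGF23, and is a description only. By Pearson's r of deviations from group means, those nearest to EPO were SLC16A3 (0.70), LDHA (0.66), POP7 (0.66), SLC2A1 (0.64) and XRCC2 (0.63). With SLE-BDL left out these were 0.50, 0.24, 0.31, 0.63 and 0.44, so SLC2A1, the glucose transporter GLUT1, kept its value and LDHA, lactate dehydrogenase A, did not. On the same measure EGLN3 took place 11 and FGF23 place 51.

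For FGF23 the nearest by deviations were THBD (0.71), STC1 (0.68), ACKR3 (0.67), FLT1 (0.63) and HECW2 (0.63), which were 0.74, 0.52, 0.44, 0.56 and 0.62 with SLE-BDL left out. THBD encodes thrombomodulin, on the surface of endothelial cells, FLT1 is a receptor for VEGFA, and STC1 encodes stanniocalcin, a hormone of calcium and phosphate balance. EPO took place 98.

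Medians of these r values were taken over some of the lists only and are given as a description. Among those lists EPO and FGF23 differed most for the endothelial markers. For the 40 HIF targets the median r was 0.24 with EPO (35 above 0) and 0.26 with FGF23 (37 above 0), where all genes had 0.02 and 0.02, with 55.6% and 54.4% above 0. For 7 endothelial markers it was -0.00 with EPO (3 above 0) and 0.40 with FGF23 (7 above 0). For the 14 erythroid markers it was 0.03 and 0.13, for 8 stellate cell markers 0.10 and 0.16, and for 7 hepatocyte markers -0.16 and -0.04. All these medians include the SLE-BDL pigs, and none was taken without them. With SLE-BDL left out, most HIF targets had a lower r with EPO and with FGF23. The r of endothelial markers with FGF23 then rose for some markers and fell for others. The summed endothelial level averaged 930 CPM (SD 255), 791 (SD 217) and 876 (SD 139) in sham pigs on ENT, SLE and MLE, and 779 (SD 128), 744 (SD 230) and 729 (SD 40.7) in BDL pigs, with STAB2 the most abundant. The part of these cells in the FGF23 values was not tested.

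Markers of kidney and bone, the usual sources of the hormones, were checked. Of 5 kidney markers 0 reached a mean of 1 CPM, and their summed level averaged 0.221 to 0.871 CPM over the groups, with SLC12A1 the most abundant. The sum averaged 0.774 CPM (SD 1.31) in SLE-BDL against 0.221 (SD 0.201) in SLE-sham, and it was highest in ENT-BDL, at 0.871 (SD 0.646). All 5 were below the filter on low counts. DESeq2 called 1 in SLE-BDL against SLE-sham and 1 in SLE-sham against ENT-sham. A single SLE-BDL library, replicate 8, had a kidney sum of 4.7 CPM, and its EPO level of 0.47 CPM was the lowest of that group. Of 6 bone cell markers MEPE was at 0 in all 60 libraries, IBSP at 0 in 58, SOST at 0 in 57 and SP7 at 0 in 15, whereas DMP1 and BGLAP, at means of 6.65 and 1.56 CPM, were found in every library. DMP1, the most abundant of them, averaged 4.25 ± 1.5 CPM in SLE-BDL, the group with most FGF23, and 9.08 ± 2.72 CPM in ENT-sham (SD). DMP1 was lower in SLE-sham and SLE-BDL than on ENT, by -0.61 and -0.78. Hepatocyte markers fitted the liver label, with ALB at a mean of 32068 to 69395 CPM in the 6 groups.

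Other cell type markers also differed between BDL and sham pigs. Cholangiocyte markers, led by SPP1, averaged 75.3 CPM in ENT-sham (SD 65.3) against 217 in ENT-BDL (SD 49.9), 180 in SLE-sham (SD 48.3) against 229 in SLE-BDL (SD 71.1), and 83.7 in MLE-sham (SD 13.6) against 220 in MLE-BDL (SD 60.5). Of 6 markers 5, 1 and 6 rose after BDL on ENT, SLE and MLE, where 17.4%, 4.54% and 14.4% of all genes were called. On SLE 5 of 6 had an unadjusted p under 0.05, and the median log2 fold change was 0.67. On the same background hepatocyte markers fell in 4 of 7 on ENT and 6 of 7 on MLE, while on SLE edgeR called 0 of 7, with 3 at unadjusted p under 0.05 and 0 by DESeq2. Stellate cell markers, led by RELN, ran from 365 to 463 CPM in mean sum, Kupffer cell markers, led by C1QA, from 578 to 887, and neutrophil markers, led by CSF3R, from 10.9 to 25.2, with the highest neutrophil mean in SLE-BDL. Markers differed between diets as well. SLE-sham against ENT-sham had 3 of 7 hepatocyte markers lower, 3 of 6 Kupffer cell markers called and 2 of 6 cholangiocyte markers higher, next to 27.5% of all genes. In the same order the calls were 2, 1 and 1 in MLE-sham (21.1%), 2, 0 and 0 in SLE-BDL (19.6%) and 1, 0 and 1 in MLE-BDL (16.8%). The part of these cells in the EGLN3, EPO and HIF target results was not tested.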

How the data were processed

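Liver RNA-seq of 60 pigs was taken as read counts per gene, which the authors deposited as unnormalized counts after alignment to Sscrofa11.1 with HISAT2 2.0.5 and counting with featureCounts 1.5.0-p3, with StringTie 1.3.3 for gene models. The other column used, gene length (unit: other, in bases), was also deposited and served for RPKM alone. Library totals are in the report, and SEs hold counting error and differences between pigs. Coordinates are those of the file and matched the RefSeq table for all 8 members, and symbols with more than 1 gene ID (TF, with 2) were taken as the most abundant ID. The 24 features without a name took 0.00842% to 0.0407% of a library's counts.

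Correlations, lists and figures were computed in Python 3.11.15 (scipy 1.17.1, pandas 2.3.3, numpy 2.4.6, matplotlib 3.10.9) and models in R 4.3.3 (limma 3.58.1, DESeq2 1.42.0, edgeR 4.0.16). One edgeR quasi-likelihood model of the 6 group means (filterByExpr, TMM, robust dispersion) gave the fold changes and p-values between groups, except where an alternative is named. They were adjusted by Benjamini-Hochberg over all tested genes, and a gene was called at an adjusted p under 0.05 at any fold change. Log2 CPM used a prior count of 2. Correlations used 100000 two-sided permutations of pigs within groups, or all of them exactly in groups under 10. Lists were described by counts and medians, with no set test. Alternatives were blocks for identifier number or replicate, RLE factors, DESeq2, a filter of 10 counts per pig or none, thinned libraries, other prior counts, CPM with plain totals, and leaving out pigs or groups. Members and lists were chosen with earlier results of these data known. Genes named are the members, up to 4 called genes per list and comparison with the largest fold change, the most abundant gene per cell type, the 5 nearest genes per measure, and HAMP, ERFE, TFRC, FGF19, FGF21 and KL, with undetected genes and their companions (EGLN2, CYP24A1, bone cell markers) named as such and EPOR chosen after its values were seen. The methods were tested on simulated data.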

Additional observations from a re-analysis of the deposited data

Results flagged for a closer look

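Of 32 combinations of a member with a group of at most 10 pigs, 2 had a pig set far apart from the rest, and chance alone does so in about 1 in 20 groups. EGLN3 was 13.1 CPM in ENT-BDL replicate 2, where the other 9 pigs lay between 4.14 and 8.1 CPM. HIF1A was 32.6 CPM in SLE-sham replicate 6, where the others lay between 39.6 and 47.5 CPM.

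Cell type markers aside, the response to BDL differed between diets for 4 listed genes by the interaction test in edgeR. The SLE response exceeded the ENT response on the log2 scale by 1.17 for LDHA (SE 0.27, adjusted p = 0.00944), by 1.36 for BHLHE40 (SE 0.33, adjusted p = 0.015) and by 2.07 for CP (SE 0.53, adjusted p = 0.0224). For FGFR2 the MLE response differed from the ENT response by -0.79 (SE 0.17, adjusted p = 0.0431).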

How the results depend on the processing

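Of 6192 alternative values of members 5968 were the same by the rules set for direction and threshold. A filter of at least 10 counts in every pig gives no value for EPO or FGF23. Pigs left out by name after seeing the data, and pigs kept only with the identifier numbers of MLE pigs, were added alternatives, and the latter leave 2 ENT-sham pigs. Levels of EPO and FGF23 in ligated pigs carry no test between groups. Cell composition and oxygen were not measured in these libraries. Feeding state at sampling and the meaning of the identifier number were not stated. The paper reports cholangiocyte staining, which was not used here, and the feeding regimen, which was used only to describe the groups. The cause of changes between settings was not tested.

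The number of HIF target genes past the threshold changed most with only the identifier numbers of MLE pigs. It was then 0 for BDL on ENT (8 with all pigs), 1 for BDL on SLE (9), 9 for SLE-sham against ENT-sham (19), 5 for MLE-sham against ENT-sham (10), 1 for MLE-sham against SLE-sham (4), 9 for SLE-BDL against ENT-BDL (27) and 11 for MLE-BDL against ENT-BDL (19). Without both highest SLE-BDL pigs it was 2 for BDL on SLE and 0 for MLE-BDL against SLE-BDL. The identifier number block gave 6 for MLE-sham against ENT-sham, no filter on low counts gave 2 for MLE-sham against SLE-sham, and DESeq2 gave 2 for MLE-BDL against SLE-BDL. Leaving out 1 pig at a time gave 5 to 13 for BDL on SLE, with 5 without SLE-BDL replicate 9, 2 to 4 for MLE-sham against SLE-sham and 0 to 2 for MLE-BDL against SLE-BDL. These counts are given without the share of all genes called in the same fit. A fall in calls over all genes is thus not separated from a fall in this list.

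The correlation of EPO and FGF23 was 0.47 with all pigs. It was 0.08 in sham pigs only, 0.14 with SLE-BDL left out, 0.23 without the 2 pigs farthest from the median EPO deviation and 0.23 without both highest SLE-BDL pigs, which are the same pigs. Leaving out 1 pig at a time gave 0.37 to 0.55.

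Several log2 fold changes took the opposite sign. With only the identifier numbers of MLE pigs EPO was 3.11 for ENT-BDL against ENT-sham, 5.66 for SLE-sham against ENT-sham and 3.97 for MLE-sham against ENT-sham, where both ENT-sham pigs had 0 counts. EGLN3 was then 0.24 for SLE-sham against ENT-sham, VEGFA -0.03 for MLE-sham against SLE-sham, ADM -0.26 for MLE-BDL against SLE-BDL and -0.40 for the BDL response of MLE minus SLE, and CA9 0.15 for that of MLE minus ENT. With the identifier number block SLE-sham against ENT-sham was 0.43 for EPO and 0.15 for EGLN3, and without both closely matching ENT libraries EGLN3 was 0.07. Without both highest SLE-BDL pigs EGLN3 was 0.18 for MLE-BDL against SLE-BDL and 0.51 for MLE minus SLE, ADM was -0.15 for BDL on SLE and -0.11 for SLE-BDL against ENT-BDL, and HIF1A was -0.00 for BDL on SLE and -0.02 for SLE minus ENT. CA9 for MLE-BDL against ENT-BDL, at 0.01, became -0.00 with DESeq2, -0.01 with no filter on low counts, -0.01 with at least 10 counts in every pig, -0.03 with the identifier number block and -0.00 without both highest SLE-BDL pigs.

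With the replicate block CA9 was -0.01 for MLE-BDL against ENT-BDL and ADM was -0.02 for MLE-sham against SLE-sham, while the identifier number block gave -0.06 for ADM. Libraries of different groups with the same replicate number had a residual correlation of -0.0173 at the median over 137 pairs, from -0.231 to 0.381, against -0.0186 in 1318 other pairs, so the replicate block is a check and not a pairing.

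Leaving out 1 pig at a time changed the sign of values near 0. The ranges were -0.22 to 0.07 for EGLN3 in SLE-sham against ENT-sham and -0.36 to 0.25 for EGLN3 in MLE minus SLE, and -0.02 to 0.09 for VEGFA in MLE minus ENT. ADM gave -0.04 to 0.26 for BDL on SLE, -0.04 to 0.07 for MLE-sham against SLE-sham, -0.00 to 0.30 for SLE-BDL against ENT-BDL and -0.00 to 0.31 for MLE minus SLE. CA9 gave -0.02 to 0.06 for BDL on SLE, -0.00 to 0.08 for SLE-BDL against ENT-BDL, -0.07 to 0.08 for MLE-BDL against ENT-BDL and -0.11 to 0.04 for MLE-BDL against SLE-BDL. HIF1A gave -0.01 to 0.04 for BDL on ENT, -0.05 to 0.02 for MLE-sham against SLE-sham and 0.00 to 0.07 for SLE minus ENT. EPAS1 gave -0.06 to 0.03 for MLE-sham against SLE-sham, -0.01 to 0.12 for SLE minus ENT and -0.06 to 0.08 for MLE minus ENT.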
